A study of Mus musculus with 4 samples.

Results

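Rbm4, Rbm4b and Rbm14 are neighbouring genes for RNA-binding proteins on mouse chromosome 19. They are 3 of the 21936 genes in the deposited count table, and all 3 were among the 14722 genes kept by the filter on low counts. They were chosen by name, from values of the TSSK2-IP and control libraries that were already known, so their values in that comparison are given below as a description without a test. The study asked which mRNAs associate with TSSK2, a testis-specific serine/threonine kinase found in the late chromatoid body (late-CB) of elongating spermatids. Germ cell suspensions from the testes of adult C57BL/6 mice, over 8 weeks old and with no genetic change or treatment named, were cross-linked with paraformaldehyde, and the sonicated pellet fraction was precipitated with an anti-TSSK2 antibody (2 TSSK2-IP samples) or with mouse IgG (2 control IgG-IP samples). The cells came from collagenase-digested tubules passed through a strainer and were not sorted, so the suspension could hold germ cells of any stage. The sources used here do not say how many mice made up a sample or whether samples of a group came from separate animals, so the spread between samples may be technical.

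RBM4 and RBM4B are closely related proteins. Each has a pair of RNA recognition motifs and a zinc finger of the retroviral type, and they are known to regulate the choice of splice sites and, in the cytoplasm, the translation of mRNAs. RBM14, also called CoAA, carries RNA recognition motifs and a long repetitive domain that can form condensates. It acts as a coactivator of transcription and is needed for paraspeckles, nuclear bodies built on the long non-coding RNA NEAT1. In elongating spermatids the chromatin is compacted and transcription ceases, so the proteins of these cells are made from stored mRNAs.

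All coordinates are on GRCm38. Rbm4b (ENSMUSG00000033760, plus strand) lies at chr19:4756497-4767065. Rbm4 (ENSMUSG00000094936, minus strand) lies 17.2 kb further on, at chr19:4784293-4793901, so that both genes point towards each other. Rbm14 (ENSMUSG00000006456, minus strand) follows after 6.67 kb, at chr19:4800569-4811634, and is transcribed in the same direction as Rbm4. The protein-coding transcript with the longest reading frame had 4 exons and 361 codons for Rbm4, 4 exons and 357 codons for Rbm4b, and 3 exons and 669 codons for Rbm14. A further annotated gene, Gm21992 (ENSMUSG00000096370, minus strand, chr19:4742913-4811612), spans Rbm4b, Rbm4 and all of Rbm14 except 22 bases at the 5' end. It is listed in RefSeq under the synonym Rbm14-rbm4, and some of its transcripts start at the first exon of Rbm14 and go on into exons of Rbm4.

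The coding sequences of Rbm4 and Rbm4b were identical at 929 of 1073 aligned positions without gaps (86.6%), and the first 425 coding bases were the same in both. The first 150 coding bases are shown because a read of that length from here cannot be assigned to one of the genes by its own sequence. The libraries were paired-end, so a mate from outside the identical bases could still place such a read. The bases shown lie at chr19:4792660-4792809 (minus strand) in Rbm4 and at chr19:4757258-4757407 (plus strand) in Rbm4b, in the second exon of each transcript.
Rbm4 and Rbm4b: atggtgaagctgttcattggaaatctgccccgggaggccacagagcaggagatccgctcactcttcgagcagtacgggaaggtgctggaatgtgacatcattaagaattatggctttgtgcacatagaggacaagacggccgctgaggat
The least alike stretch of 150 aligned coding bases differed at 39 positions, and there a read can be told apart. It holds coding bases 881 to 1030 of Rbm4 (chr19:4787425-4787574, minus strand) and 869 to 1018 of Rbm4b (chr19:4762433-4762582, plus strand). Capitals mark the bases that differ.
Rbm4: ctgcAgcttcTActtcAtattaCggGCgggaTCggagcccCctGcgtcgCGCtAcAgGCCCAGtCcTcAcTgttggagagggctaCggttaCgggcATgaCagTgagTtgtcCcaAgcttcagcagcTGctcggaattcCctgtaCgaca
Rbm4b: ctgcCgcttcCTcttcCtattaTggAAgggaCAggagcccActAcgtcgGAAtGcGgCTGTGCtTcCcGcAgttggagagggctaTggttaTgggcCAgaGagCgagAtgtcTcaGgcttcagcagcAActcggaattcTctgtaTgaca
Of the 2461 windows of 150 bases in the Rbm4 transcript, 277 (11.3%) were also found in transcripts of Rbm4b. No window of Rbm14 (0 of 3016) occurred in Rbm4 or Rbm4b.

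The link between Rbm14, Rbm4 and Gm21992 is visible at the first exon junctions. The 15 bases on each side of the junction from exon 1 to exon 2 are shown, with the downstream exon in capitals. All are on the minus strand.
Rbm14: gtgacgtggtaaaagACTACGCGTTTGTTC
Rbm4: cctcgacttagtgcgGCTGTGTGGAGATGG
Gm21992: gtgacgtggtaaaagGCTGTGTGGAGATGG
The annotated transcript joins the end of the first exon of Rbm14, at position 4811172, to the start of the second exon of Rbm4, at position 4792820. Reads over this junction would tell the joined transcript from the separate ones, but the deposited counts are per gene and do not resolve junctions.

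How shared exons were counted was read from the table itself. Of 93 genes whose exon bases were all shared with same-strand genes of the table, and that overlapped a gene with at least 100 counts, 87 had 0 counts over the 4 libraries and none had 100 or more (0 genes). Of 16 genes wholly covered by exons on the opposite strand only, by the same limit on the overlapping gene, none had 0 counts (0 genes). A fragment lying in exons of more than 1 gene on the same strand was thus mostly left uncounted, and an overlap on the opposite strand did not empty a gene. The annotation used here, GENCODE vM21, may differ in places from the Ensembl annotation with which the reads were counted. For Rbm4, 2990 of 4940 annotated exon bases (60.5%) were shared with Gm21992, and the remaining 1950 fell into a stretch of 859 bases at the 3' end of the last exon (chr19:4784293-4785151) and one of 1091 bases (chr19:4790068-4791158) that is exon in a noncoding transcript with a long last exon and, in part, in 1 coding transcript, and intron in the others. None of the 1652 windows of 150 bases in these stretches (0 windows) occurred in Rbm4b, so the sequence that is identical in both genes lies outside the bases that only Rbm4 holds. Rbm14 shared 727 of 3910 exon bases (18.6%) with Gm21992 and kept 3183 of its own, of which 2013 form 1 stretch (chr19:4802003-4804015) that includes most of its reading frame. Rbm4b shared no exon base (0 of 9979) with a same-strand gene of the table. Gm21992 had only 2063 of 5780 bases to itself, and 1955 of these are a single exon beyond Rbm4b (chr19:4742913-4744867).

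**Figure D1:**
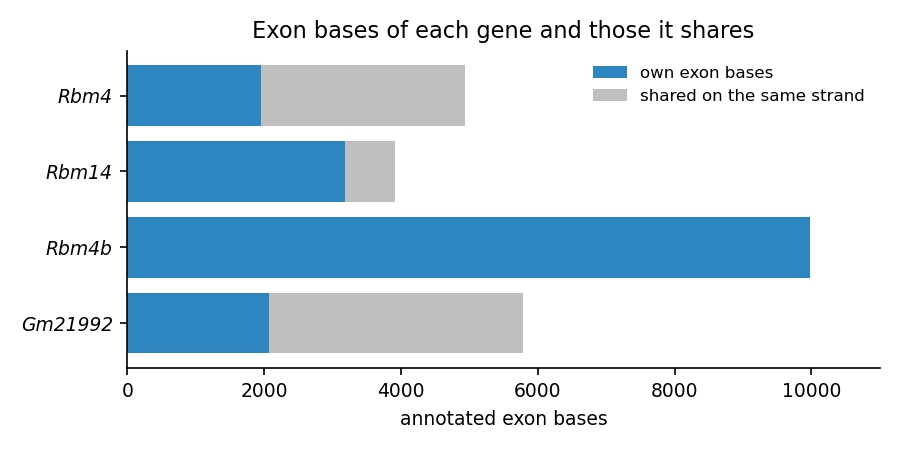
Annotated exon bases of each gene (horizontal axis, number of bases in the union of its exons), split into bases of its own and bases shared with another same-strand gene of the table. Rbm4 has 1950 of 4940 bases to itself, Rbm14 3183 of 3910, Rbm4b all 9979 and Gm21992 2063 of 5780.

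The libraries held 4158034 and 4491749 counts in TSSK2-IP and 9858941 and 3938922 in control IgG-IP, and 1 count was worth between 0.156 and 0.230 normalized CPM (counts scaled to the library size by TMM). The control libraries differed from each other more than the TSSK2-IP libraries did. The summed level of 14 markers of elongating spermatids was 8290 and 7720 normalized CPM in TSSK2-IP, 24400 in control IgG-IP replicate 1 and 10500 in control IgG-IP replicate 2, and none of the 14 was at 0 in all libraries or passed the thresholds. Over all genes tested, 102 were called higher in TSSK2-IP (0.693%) and 0 were called lower (0%), at a log2 difference of at least 1 and a Benjamini-Hochberg adjusted p of 0.05 or less by edgeR's quasi-likelihood test. DESeq2 called 139 higher and 0 lower. Without adjustment, 8.34% of the genes tested (1228) were higher at p under 0.05 and 4.89% (720) were lower. For 27.3% of the genes tested both TSSK2-IP libraries exceeded both controls, and for 21.6% both were below them.

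Rbm4 and Rbm14 were higher in both TSSK2-IP libraries than in either control library, by about an order of magnitude, and Rbm4b was not. Rbm4 had 356 and 400 counts in TSSK2-IP replicates 1 and 2 and 19 and 35 in the controls. These counts correspond to 73.8 and 76.1 normalized CPM in TSSK2-IP and 2.96 and 8.04 in control IgG-IP, or 75.0 ± 1.64 and 5.50 ± 3.59 (SD, n = 2 each). The TSSK2-IP libraries were close together, while the control libraries differed 2.71-fold. The lower TSSK2-IP library was still 9.18-fold above the higher control library. The fitted log2 difference was 3.80 (standard error 0.52), or 13.9-fold, which became 3.27 when control IgG-IP replicate 1 was left out and 4.58 when replicate 2 was. These values were part of the choice of the gene.

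Rbm14 was the most abundant of the 3 in TSSK2-IP. Its counts were 2383 and 2121 in TSSK2-IP and 284 and 180 in control IgG-IP. The normalized CPM was 494 and 404 in TSSK2-IP and 44.3 and 41.4 in control IgG-IP, which gives 449 ± 63.9 and 42.8 ± 2.09 (SD, n = 2 each). Here the control libraries differed only 1.07-fold, unlike those for Rbm4. The lower TSSK2-IP library was 9.11-fold above the higher control library, and the fitted log2 difference was 3.39 (standard error 0.60), or 10.5-fold. It stayed between 3.22 and 3.51 in every alternative fit, also without either control library. Rbm4 and Rbm14 ranked 29th and 50th by fitted log2 difference among the genes tested, and were chosen with these differences known.

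Rbm4b, the paralog of Rbm4, had 610 and 727 counts in TSSK2-IP and 1961 and 572 in control IgG-IP. In normalized CPM this is 126 and 138 in TSSK2-IP and 306 and 131 in control IgG-IP, or 132 ± 8.40 and 219 ± 123 (SD, n = 2 each). The groups overlapped, and control IgG-IP replicate 1 alone stood above the rest. The fitted log2 difference was -0.72 (standard error 0.55). Leaving out control IgG-IP replicate 1 gave 0.07 and leaving out replicate 2 gave -1.28, so its sign rests on the first of these libraries. Its counts may include fragments of Rbm4, or lack fragments of its own, where the coding sequences are identical, since the sources used here do not say how reads with several mapping sites were treated.

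**Figure D2:**
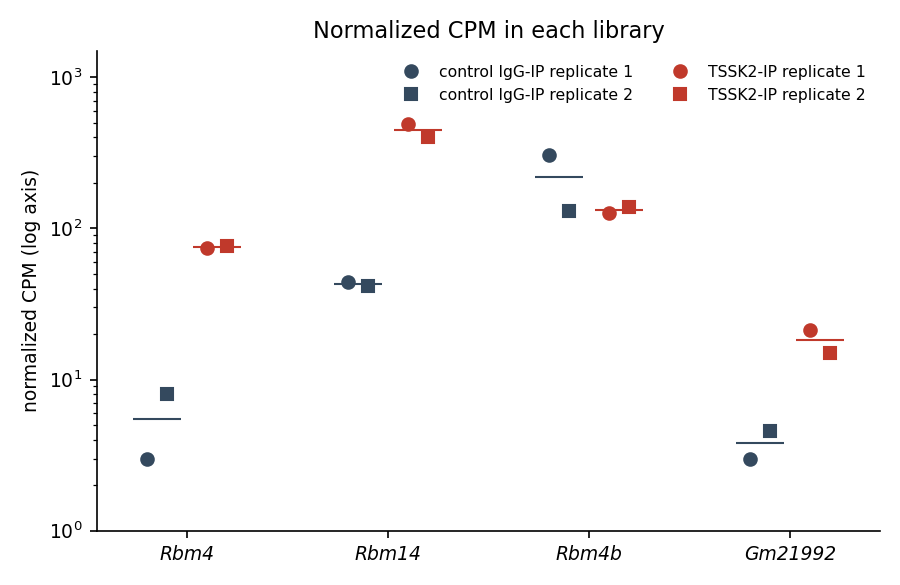
Normalized CPM (vertical log axis) of Rbm4, Rbm14, Rbm4b and Gm21992 in each of the 2 control IgG-IP and 2 TSSK2-IP libraries, with a line at each group mean. The TSSK2-IP libraries lie above the control libraries for Rbm4 (73.8 and 76.1 against 2.96 and 8.04), Rbm14 and Gm21992, and overlap them for Rbm4b.

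The paralogs took different shares of their common count in the IP and in the control. These shares come from the counts that were known when the genes were chosen, so they describe that choice and are no further support for it. Rbm4 made up 36.9% (95% exact Clopper-Pearson interval 33.8 to 40.0) and 35.5% (32.7 to 38.4) of the Rbm4 and Rbm4b counts in TSSK2-IP replicates 1 and 2. It made up 0.960% (0.579 to 1.49) and 5.77% (4.05 to 7.93) in control IgG-IP replicates 1 and 2. These intervals cover counting error only, and the control libraries differed from each other beyond it. The balance between Rbm4 and Rbm14 moved less. Rbm4 made up 13.0% (11.8 to 14.3) and 15.9% (14.5 to 17.4) of the Rbm4 and Rbm14 counts in TSSK2-IP, and 6.27% (3.82 to 9.62) and 16.3% (11.6 to 21.9) in control IgG-IP. The groups overlapped in this share, and control IgG-IP replicate 1 was the lowest library in both shares.

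**Figure D3:**
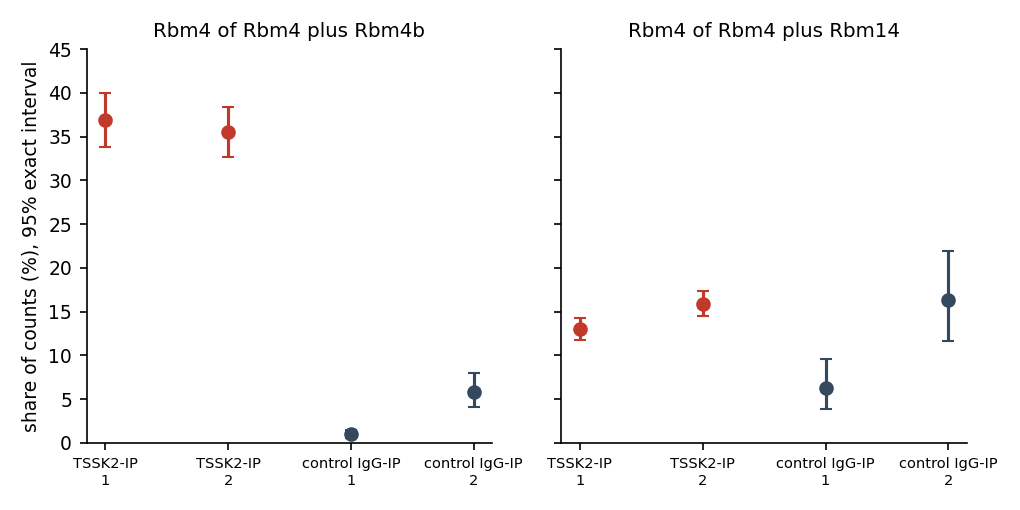
Share of counts (vertical axis, %) taken by Rbm4 among the counts of Rbm4 plus Rbm4b (left) and of Rbm4 plus Rbm14 (right) in each library, with exact 95% binomial intervals for counting error. On the left the TSSK2-IP libraries, at 36.9% and 35.5%, lie above both control libraries, and on the right the groups overlap. The genes were chosen with these counts known.

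Levels were compared between genes only per length, as normalized CPM per kb of annotated exon. In TSSK2-IP replicates 1 and 2 the level was 126 and 103 for Rbm14, 14.9 and 15.4 for Rbm4, and 12.7 and 13.9 for Rbm4b. Rbm14 therefore stood far above the other two, whose levels lay close together. In control IgG-IP replicates 1 and 2 the level was 30.7 and 13.2 for Rbm4b, 11.3 and 10.6 for Rbm14, and 0.600 and 1.63 for Rbm4. Rbm4 was the lowest in both control libraries. Among all genes tested, Rbm14 lay at the 99.1th and 98.8th percentile of this level in TSSK2-IP, and at the 71.3th and 74.7th in control IgG-IP.

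The order of the genes next to each other depended on the length used. Per kb of the exon bases that no same-strand gene shares, which are those the counts mostly come from, Rbm4 had 37.8 and 39.0 in TSSK2-IP and 1.52 and 4.12 in control IgG-IP. On this scale Rbm4 was above Rbm4b in TSSK2-IP, where Rbm4b had 12.7 and 13.9. All 9979 exon bases of Rbm4b entered its length, however, beside only 1950 of Rbm4. Per kb of the longest transcript they lay closer, at 24.9 and 25.7 for Rbm4 and 22.3 and 24.4 for Rbm4b. The size of their difference in TSSK2-IP therefore rests on the length chosen. Per kb of unshared bases, Rbm14 had 155 and 127 in TSSK2-IP and 13.9 and 13.0 in control IgG-IP. In control IgG-IP replicate 2 it thus could not be ordered against Rbm4b. By annotated length of the longest transcript the genes were not extreme. Rbm4, Rbm4b and Rbm14 had 2965, 5670 and 3508 bases with a GC content of 44.0%, 41.7% and 56.2%, beside medians of 3460 bases and 49.4% over 14710 tested genes.

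Gm21992, the joined gene, overlaps Rbm4 and Rbm14 and was named for that, although its values were also known beforehand, so its p is not independent of that knowledge. It had 103 and 79 counts in TSSK2-IP and 19 and 20 in control IgG-IP. These are 21.4 and 15.0 normalized CPM against 2.96 and 4.60, so the groups did not overlap. Its log2 difference was 2.28 (standard error 0.50, edgeR quasi-likelihood test, Benjamini-Hochberg adjusted p = 0.0586), which missed the threshold on p. Over the alternatives the adjusted p ranged from 5.94e-10 to 1.0, and the call went both ways. It missed the threshold with upper-quartile scaling (adjusted p = 0.224), with at least 10 counts in every library (0.127) and without TSSK2-IP replicate 1 (1.0) or 2 (0.47), all by the same edgeR test, and with DESeq2 (adjusted p = 0.0697). It passed without the filter on low counts (adjusted p = 0.00144 by the same edgeR test), with the replicate number as a block (adjusted p = 0.00968 by the same edgeR test), and when either control library was left out, with log2 differences of 2.03 and 2.54. The share of Gm21992 in the summed counts of Gm21992 and Rbm4 was 22.4% (95% exact interval 18.7 to 26.5) and 16.5% (13.3 to 20.1) in TSSK2-IP, and 50.0% (33.4 to 66.6) and 36.4% (23.8 to 50.4) in control IgG-IP. Most of its own exon bases lie beyond Rbm4b, so these counts do not show how much of the Rbm14 and Rbm4 signal comes from joined transcripts.

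Of the genes around the locus, Gm21992 came closest to the thresholds. Within 250 kb on either side of the span of the 3 genes, the table held 21 other genes, of which 18 were tested. None was called higher or lower (0 of 18) by edgeR's quasi-likelihood test, beside 0.693% and 0% of all genes, although Gm21992 was called in the fits named above. DESeq2 also called 0. At an unadjusted p under 0.05, 1 of the 18 was higher and 1 lower, beside 8.34% and 4.89% of all genes. The 1 higher gene was Gm21992, which overlaps Rbm4 and Rbm14 and whose values were known beforehand. It is also among the 18 in the values that follow. The median log2 difference of the 18 was 0.15, beside -0.02 over all genes tested, and 10 were positive and 8 negative. Both TSSK2-IP libraries lay above both controls for 4 of them (22.2%), beside 27.3% of all genes. They lay below both for 3 (16.7%), beside 21.6% of all genes.

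Ccs, which adjoins Rbm14 and encodes the copper chaperone of superoxide dismutase, had 92 and 94 counts in TSSK2-IP and 81 and 59 in control IgG-IP (log2 difference 0.50, edgeR quasi-likelihood test, Benjamini-Hochberg adjusted p = 0.595). It did not pass the thresholds. Of the more abundant neighbours, Bbs1, a subunit of the BBSome of cilia, had a log2 difference of 0.83 (adjusted p = 0.395 by the same edgeR test). Ccdc87, a coiled-coil protein gene, had one of -0.59 (adjusted p = 0.588), and Dpp3, a dipeptidyl peptidase, had the lowest of the 18 at -1.45 (adjusted p = 0.281), both by the same edgeR test.

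**Figure D4:**
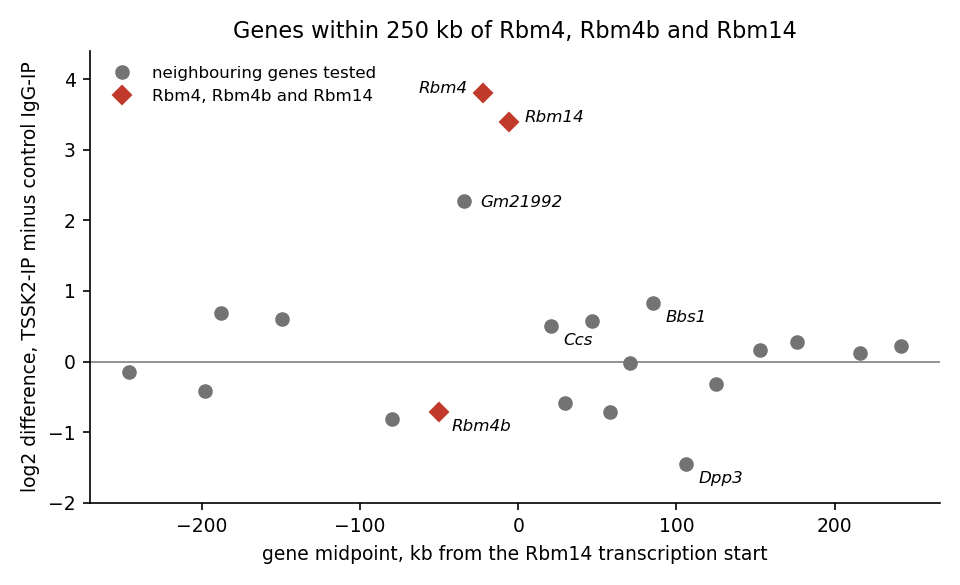
Fitted log2 difference between TSSK2-IP and control IgG-IP (vertical axis) of Rbm4, Rbm4b, Rbm14 and the 18 tested neighbours, by distance of the gene's midpoint from the transcription start of Rbm14 (horizontal axis, kb). Rbm4 (3.80) and Rbm14 (3.39), chosen with these values known, lie highest, followed by Gm21992 (2.28). The other neighbours lie between -1.45 and 0.83.

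The genes whose profiles over the 4 libraries were most like those of the 3 genes lay elsewhere in the genome. Likeness was measured as the Euclidean distance between mean-centred log2 CPM over 4 libraries, which mostly reflects the difference between the groups and, for Rbm4b, the gap between the control libraries. Nearest to Rbm4 were Gm266 (distance 0.164), Camkmt, which encodes the calmodulin-lysine N-methyltransferase (0.202), and the olfactory receptor gene Olfr732 (0.222). Camkmt had 185 and 181 normalized CPM in TSSK2-IP and 7.49 and 17.0 in control IgG-IP, with the same low first control library as Rbm4. Nearest to Rbm14 were the vomeronasal receptor gene Vmn1r222 (0.167), the olfactory receptor gene Olfr18 (0.350) and Glcci1 (0.372). Rbm4 was the 59th nearest gene to Rbm14 and Rbm14 the 78th nearest to Rbm4, at a distance of 1.13. Nearest to Rbm4b were Gsto2, a glutathione transferase gene (0.0371), Rsph3b, which encodes a radial spoke protein (0.0387), and Atp6v0e2, which encodes a subunit of the vacuolar proton pump (0.0406). All of these had their highest level in control IgG-IP replicate 1, as Rbm4b did.

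Among other genes of the RBM family, which share the RNA recognition motif but not one function, a few were higher in TSSK2-IP. The table held 44 genes whose symbols begin with Rbm besides the 3, and 38 were tested. Of these, 2 were called higher and 0 lower by edgeR's quasi-likelihood test, beside 0.693% and 0% of all genes (DESeq2 called 0 lower). At an unadjusted p under 0.05, 4 of the 38 were higher and 2 lower, beside 8.34% and 4.89% of all genes. Their median log2 difference was 0.24. Both TSSK2-IP libraries lay above both controls for 17 of 38 (44.7%), beside 27.3% of all genes. They lay below both for 4 (10.5%), beside 21.6% of all genes. Rbm12, whose protein carries several RNA recognition motifs, rose from 6.71 and 11.3 normalized CPM in control IgG-IP to 75.3 and 75.7 in TSSK2-IP. Its counts were 363 and 398 in TSSK2-IP and 43 and 49 in control IgG-IP (log2 difference 3.08, standard error 0.45, edgeR quasi-likelihood test, Benjamini-Hochberg adjusted p = 0.00672). It shares 32.6% of its exon bases with the same-strand gene Gm28036, which has no base of its own and 0 counts.

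Rbm12b2, a related gene, rose from 6.08 and 10.6 normalized CPM in control IgG-IP to 43.3 and 53.7 in TSSK2-IP (log2 difference 2.55, standard error 0.44, edgeR quasi-likelihood test, Benjamini-Hochberg adjusted p = 0.0168). Its near copy Rbm12b1 had 91 and 117 counts in TSSK2-IP and 35 and 37 in control IgG-IP (log2 difference 1.57, adjusted p = 0.176 by the same edgeR test). The values of both are uncertain, because 45.8% of the windows of 150 bases in Rbm12b2 also occurred in Rbm12b1. Neither Rbm12 nor Rbm12b2 passed when either TSSK2-IP library was left out (adjusted p = 0.158 and 0.112 for Rbm12, 0.294 and 0.522 for Rbm12b2, by the same edgeR test). Rbm12b2 also missed the threshold with upper-quartile scaling and with at least 10 counts in every library (adjusted p = 0.0790 and 0.0524 by the same edgeR test). The most abundant other members did not pass. The log2 difference was 0.28 for Rbm25, a splicing regulator, 0.02 for Rbm26 and -1.35 for Rbm27, both linked to nuclear RNA decay (adjusted p = 0.853, 0.988 and 0.357 by the same edgeR test).

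RBM14 works in paraspeckles, and the mRNAs of other paraspeckle proteins were examined as a list. Besides Rbm14 and Rbm4b the list held 26 genes that were tested, while Neat1 was not among the rows used. Rbm12 was the 1 gene called higher, and 0 were called lower by edgeR's quasi-likelihood test, beside 0.693% and 0% of all genes (DESeq2 also called 0 lower). At an unadjusted p under 0.05, 7 of the 26 were higher and 1 was lower, beside 8.34% and 4.89% of all genes. The median log2 difference was 0.34, and both TSSK2-IP libraries lay above both controls for 13 of the 26 (50.0%), beside 27.3% of all genes. Pspc1, a core paraspeckle protein, had 1243 and 1287 counts in TSSK2-IP and 458 and 356 in control IgG-IP (log2 difference 1.71, edgeR quasi-likelihood test, Benjamini-Hochberg adjusted p = 0.182). Tardbp, which encodes TDP-43, had a log2 difference of 1.43 (adjusted p = 0.218 by the same edgeR test), and 23.3% of its exon bases lie opposite Masp2. The most abundant genes of the list were not higher. The log2 difference was -1.37 for Hnrnpul1, -0.50 for Ewsr1 and -1.37 for Smarca4, a chromatin remodeller (adjusted p = 0.412, 0.728 and 0.364 by the same edgeR test).

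Genes known to carry, modify, work with or be regulated by the 3 proteins made up a list of 17, all tested. None was called (0 higher and 0 lower) by edgeR's quasi-likelihood test, beside 0.693% and 0% of all genes, while DESeq2 called 1 higher and 0 lower. At an unadjusted p under 0.05, 2 were higher and 1 was lower, beside 8.34% and 4.89% of all genes. The median log2 difference was 0.29, with 11 positive and 6 negative. Both TSSK2-IP libraries lay above both controls for 8 of the 17 (47.1%), beside 27.3% of all genes. They lay below both for 3 (17.6%), beside 21.6% of all genes. Ago2, the Argonaute protein with which RBM4 is known to associate, had 1408 and 1420 counts in TSSK2-IP and 404 and 278 in control IgG-IP. Its log2 difference of 2.15 missed the threshold in edgeR's quasi-likelihood test (adjusted p = 0.0846), and it was the gene that DESeq2 called (log2 difference 2.07, adjusted p = 0.00354). Srsf3, an SR splicing factor, had a log2 difference of 1.17, and Ncoa6, a nuclear receptor coactivator that binds RBM14, one of -1.17 (edgeR quasi-likelihood test, Benjamini-Hochberg adjusted p = 0.299 and 0.359). Srpk1, the kinase of SR proteins, had one of -1.23, and Pkm, a pyruvate kinase gene whose splicing RBM4 is known to influence, one of -0.78 (adjusted p = 0.443 and 0.523 by the same edgeR test).

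**Figure D5:**
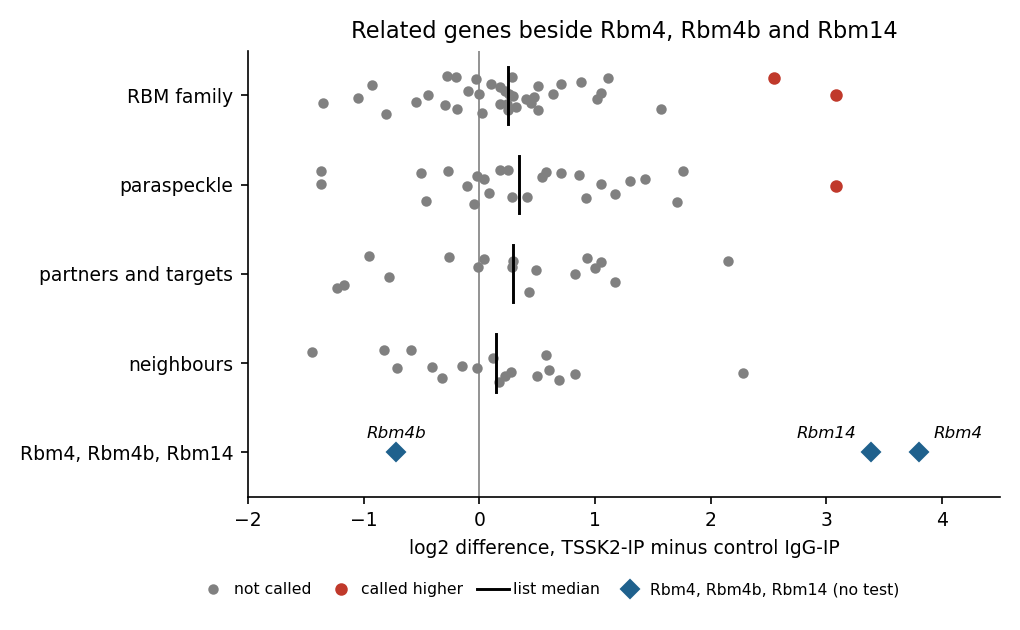
Fitted log2 difference between TSSK2-IP and control IgG-IP (horizontal axis) of each tested gene of the RBM family (38), the paraspeckle list (26), the partner and target list (17) and the neighbours (18), with a line at each list's median, above the values of Rbm4, Rbm4b and Rbm14. Only Rbm12 (3.08, in 2 lists) and Rbm12b2 (2.55) are called higher in these lists by edgeR's quasi-likelihood test. Rbm4 (3.80) and Rbm14 (3.39), chosen with these values known, lie to the right of every listed gene.

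The mRNA of the precipitated protein itself, Tssk2, was not higher in TSSK2-IP. It had 754 counts in each TSSK2-IP library and 3589 and 891 in the control libraries, a log2 difference of -1.35. Markers of other testis cells were low beside those of spermatocytes and elongating spermatids, but of the same order as those of spermatogonia. Summed over 8 Sertoli cell markers the level was 60.7 and 44.5 normalized CPM in TSSK2-IP and 21.8 and 46.6 in control IgG-IP, and over 7 Leydig cell markers it was 42.7 and 40.5 against 17.2 and 40.2. Summed over 8 spermatocyte markers it was 2170 and 2240 in TSSK2-IP and 3250 and 2000 in control IgG-IP. Spermatogonium markers summed to 70.3 and 57.1 in TSSK2-IP and 54.3 and 78.1 in control IgG-IP. In the same order, peritubular and vascular markers summed to 54.9, 56.3, 45.6 and 94.2, and macrophage and blood markers to 20.1, 28.5, 20.1 and 25.5. No marker in these lists was called or at 0 in all libraries (0 markers). The filter on low counts left 6 of 8 Sertoli cell, 6 of 7 Leydig cell and 6 of 7 spermatogonium markers to test. It left 3 of 7 macrophage and blood markers, and a marker not tested could not be called. Control IgG-IP replicate 1, the library in which Rbm4 was lowest and Rbm4b highest, was also lowest in the Sertoli and Leydig cell sums and highest in the spermatocyte and elongating spermatid sums. These 2 high sums rested largely on a few genes, among them Odf2 (10705 normalized CPM), Akap4 (5879) and Ldhc (2090). Other markers of the same lists, Tnp1 (308), Prm3 (15.4), Hormad1 (31.0) and Dmc1 (3.28), were lowest in that library. The part of this difference between the control libraries in the values of Rbm4 and Rbm4b was not tested beyond leaving that library out. The samples are precipitates, so these sums do not measure cell numbers. Fewer cells of a type, less RNA per cell and less RNA precipitated cannot be told apart.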

How the data were processed

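RNA from 2 TSSK2-IP and 2 control IgG-IP samples had been sequenced as directional paired-end libraries without rRNA removal. Per the labels, the authors used Trimmomatic 0.39 for trimming, STAR 2.7.10a for mapping to GRCm38 and featureCounts 2.0.3 for counting, and deposited raw counts per gene, without normalization. Strand setting and the handling of multi-mapping reads are not given in the sources used here. Of 21936 gene identifiers, 21817 were named through GENCODE vM21. Library totals ranged from 3938922 to 9858941 counts, so that 3 counts equal 0.468 to 0.689 normalized CPM.

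Counts were fitted in edgeR 4.0.16 (R 4.3.3) with filterByExpr, TMM, glmQLFit and glmQLFTest on 14722 genes, with p-values adjusted by Benjamini-Hochberg over all of them. Genes were called at a log2 difference of at least 1 (or -1 and below) and an adjusted p of at most 0.05, the thresholds of the study. The common dispersion was 0.135. Fits were tested on simulated data. The sequences come from GENCODE vM21 transcripts and were aligned globally with Biopython. The genes and lists described were chosen with earlier results of these data known. Named genes were Rbm4, Rbm4b and Rbm14, the adjoining and called neighbours (1 adjoining neighbour is not reported here), the called genes of each list with the 3 smallest p and the 3 most abundant, and the 3 nearest profiles per gene. Ccdc87, Dpp3 and Bbs1, which this rule did not name, were added after their values were seen. Alternatives were DESeq2 1.42.0, its size factors, upper-quartile scaling, other filters, removal of Lars2 (5.80% to 14.4% of counts), the replicate number as a block, each library left out, and other lengths, of which the length without bases shared with Gm21992 was chosen after seeing the data.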

Additional observations from a re-analysis of the deposited data

How the results depend on the processing

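Rbm4 and Rbm14 kept their direction in all 11 alternative fits, and Rbm4b changed sign when control IgG-IP replicate 1 was left out (log2 difference between -1.28 and 0.07 over the libraries left out). DESeq2's size factors lowered the median log2 difference of all genes by 0.13. The number of genes called higher over the table, 102, became 20 with upper-quartile scaling, 283 without a filter on low counts, 29 with at least 10 counts in every library and 274 with the replicate number as a block, and it ranged from 23 to 2755 when single libraries were left out. Genes called lower, 0, became 24 without the filter and 3 with the replicate block, and ranged from 0 to 2688 without single libraries. Which libraries pair is not known. Deviations of same-numbered libraries correlated at 0.126 over 14722 genes, with only 2 pairs.

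For the RBM family, upper-quartile scaling and the 10-count filter each left 1 gene called higher, and leaving out libraries gave 0 to 7 higher and 0 to 3 lower. For the paraspeckle list it gave 0 to 8 higher and 0 to 2 lower. For the partner list DESeq2 called 1 higher, and leaving out libraries gave 0 to 5 higher and 0 to 4 lower. For the neighbours the fit without a filter and the replicate block each called 1 higher (Gm21992), and leaving out libraries gave 0 to 4 higher and 0 to 2 lower. A fit that leaves out a library assumes that the lone library of its group varies like the other group. Rbm26 turned to -0.08 with DESeq2, -0.12 with its size factors, -0.03 without the filter, -0.05 without TSSK2-IP replicate 1, and ranged from -0.33 to 0.43 over the libraries left out. Over these, Ewsr1 ranged from -0.97 to 0.13 and Ccdc87 from -1.11 to 0.14, both positive when control IgG-IP replicate 1 was left out.

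Levels per kb moved with the length. For Rbm4 the mean of 15.2 in TSSK2-IP became 25.3 by longest transcript, 38.4 by own bases and 13.9 with DESeq2's size factors, and that of 1.11 in control IgG-IP became 1.86 and 2.82. For Rbm4b 13.3 became 23.4 by longest transcript and 12.2 with the size factors, and 21.9 became 38.6. For Rbm14 115 became 141 by own bases, and 11.0 became 12.2 by longest transcript and 13.5 by own bases. Rbm4 rests on 19 and 35 counts in the control libraries, which limits the precision of its fold. The cause of these changes beyond the fewer genes, libraries or bases used was not tested.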
